A study of Homo sapiens with 15 samples.

Results

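The new unmethylated regions that persisted after UHRF1 recovery were autosomal base pairs that the deposited domain lists placed in the class UMR (unmethylated region) at Knockdown and at Recovery in all 3 shUHRF1 clones, and in that class at Baseline in none of them. Unbroken pieces of 2 kb or more were kept. This gave 6909 pieces covering 34.97 Mb, out of 29260 runs of any length that covered 43.3 Mb. The pieces were selected on the measured classes of all 9 shUHRF1 libraries, so their methylation in those libraries is described here without a test. The 6 shDNMT1 libraries took no part in the choice.

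All cells were HCT116, a human colorectal carcinoma line, carrying a doxycycline-inducible short hairpin RNA (shRNA). The shUHRF1 populations were 3 clonal lines, Cl.3, Cl.6 and Cl.9, and the shDNMT1 populations were 2 bulk cultures, R1 and R2. Baseline cells grew for 14 days without doxycycline, Knockdown cells grew for 14 days with 10 ng/mL, and Recovery cells had the same treatment followed by 14 days without the drug, ending on day 28. Each population was sequenced once at each stage by whole-genome bisulfite sequencing, which gave 15 libraries. None is of untreated cells at day 28, so Recovery minus Baseline also spans 14 more days of culture. Since clones carried only the one shRNA and bulk cultures only the other, the effect of the shRNA and of the kind of population cannot be told apart. These libraries hold no measure of UHRF1 or DNMT1 protein.

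CpG methylation is lost by dilution at each round of DNA replication unless DNMT1 copies it onto the new strand. UHRF1 binds the half-copied CpG and histone H3, and its ubiquitin ligase activity helps to bring DNMT1 there. Partially methylated domains (PMDs) are long, gene-poor, late-replicating stretches of intermediate methylation, which are common in cancer cells. Within them, isolated CpGs are the ones that most often lack methylation, above all solo-WCGW CpGs, which have no near neighbour and an A or T on each side.

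The sequences below are examples from long pieces and do not stand for all of them. Most of the CpGs printed lack the A or T on each side. For the 5 longest pieces with a mean of 5 reads or more per CpG in every library, the CpG nearest the centre is printed in capitals within 30 bases of the plus strand of hg38, to show how isolated it is.
piece of 24100 bp, chr4:71711222-71711251: tatgtggattagggCGaggcaaagactgtg
piece of 18049 bp, chr18:44105224-44105253: ctaagtctaacaaaCGcctagttacttttt
piece of 17814 bp, chr3:94204103-94204132: tcactatgttaaagCGatacttgcactccc
piece of 17134 bp, chr4:45832520-45832549: tttgaatgtctggtCGaatccagctgtgaa
piece of 16705 bp, chr3:79744495-79744524: ttgaatgggtatagCGacttcataagaaca

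In none of these 5 windows is there another CpG, and the nearest was 482, 188, 203, 182 and 160 bp away in the order printed. Pooled over the 3 clones, the chr4 CpG at the first line was methylated in 8 of 68 reads at Baseline (11.8%, Wilson 95% interval 6.08 to 21.5) and in 1 of 63 at Recovery (1.59%, 0.281 to 8.46). All of these methylated reads came from Cl.9, where the level was 28.6% of 28 reads at Baseline and 3.70% of 27 at Recovery, while Cl.3 and Cl.6 had none at any stage. The chr3 CpG at the third line differed between clones. It had 90% and 87.5% methylation at Baseline and Recovery in Cl.3, 33.3% and 43.5% in Cl.6, and 40.6% and 10.0% in Cl.9, over 20 to 32 reads each. In the pooled bulk populations it was methylated in 40 of 52 reads at Baseline (76.9%, 63.9 to 86.3) and in 17 of 39 at Recovery (43.6%, 29.3 to 59.0). The chr4 CpG at the fourth line had 0 of 39 methylated reads at Baseline, where the interval reaches 8.97%. These central CpGs thus differed widely before any knockdown, and a CpG need not follow the mean of its piece. The intervals cover counting error only.

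For comparison, the same windows are shown for the 3 longest equally well covered Knockdown-only pieces. These were in class UMR in the 3 clones at Knockdown and in none at Baseline or Recovery, and the name refers to the class alone, since their methylation did not return to Baseline in the clones.
Knockdown-only piece of 12057 bp, chr13:68224603-68224632: tcacattcaggtcaCGgtaacgcaagaggt
Knockdown-only piece of 11913 bp, chr13:70664286-70664315: tcagagtgtgctgtCGgaaatcttcaaaac
Knockdown-only piece of 8993 bp, chr13:88238608-88238637: ttactctatagactCGccatgaattctttc

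The first of these windows holds another CpG 6 bp away, and the nearest CpG of the other two lay at 122 and 396 bp. Pooled over the clones, the first was methylated in 56 of 72 reads at Baseline (77.8%, 66.9 to 85.8) and in 38 of 61 at Recovery (62.3%, 49.7 to 73.4). The second was methylated in 15 of 29 reads at Baseline (51.7%, 34.4 to 68.6) and in 22 of 37 at Recovery (59.5%, 43.5 to 73.7). The last was methylated in 40 of 73 at Baseline (54.8%, 43.4 to 65.7) and in 30 of 72 at Recovery (41.7%, 31.0 to 53.2).

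Across the autosomes, each library had between 309268341 and 577680690 reads over CpGs, with a median of 11 to 21 reads per CpG. The Cl.9 libraries were the deepest of the clones at a median of 20 to 21 reads, against 11 to 14 in Cl.3 and Cl.6. Of the pieces, 6827 had at least 50 reads in every library and 82 did not. A mean of 5 reads per CpG in every library was reached by 6731 pieces (97.4%).

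The pieces were CpG-poor. They had 6.32 CpGs per kb, against 10.1 over the autosomes, and 74.7% of their 221031 CpGs had no other CpG nearer than 20 bp (low density), against 52.7% of autosomal CpGs. Solo-WCGW CpGs, with no neighbour within 35 bp, made up 21.4% of their CpGs and 12.2% of all. Their GC content of 38.7% was close to the autosomal 41.0%. CpGs per kb were 7.69 in the Knockdown-only pieces, with 17.5% solo-WCGW. Pieces in class UMR in every clone library had 8.16 and 17.1%, and the rest of the shared baseline PMDs had 10.2 and 12.2%. Nearly all segments called low-methylated with 30 or more CpGs were in class UMR, which the rule excludes at Baseline. The rule thus favours CpG-poor pieces, and how much of their low density follows from it was not tested. The median piece was 4351 bp long with 30 CpGs, and the middle 50% of pieces ran from 3043 to 6116 bp and from 21 to 36 CpGs. The longest run was 417656 bp and 273 pieces reached 10 kb.

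Although new as UMRs, few of these pieces were fully methylated before knockdown. At Baseline, 60.7% of their length was already in class LMR (low-methylated region) in Cl.3, 59.0% in Cl.6 and 62.5% in Cl.9, against 6.99% to 8.26% of the autosomes. Only 21.5% of the length was in an LMR in no clone, and 41.8% was in one in all 3. A baseline LMR of at least 1 clone touched 6691 of the 6909 pieces (96.8%), and baseline LMRs of all 3 touched 5862 (84.8%). Highly methylated domains held 0.166% to 0.413% of the length in the clones. PMDs, which can overlap the other classes, held 87.6% of it in Cl.3, 99.1% in Cl.6 and 46.2% in Cl.9, and 99.2% in R1 and R2. PMDs covered 34.2%, 37.4% and 20.1% of the autosomes in the 3 clones, so the low share in Cl.9 went with fewer called PMDs.

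The LMR and UMR classes in these lists were divided almost exactly at 30 CpGs per segment. The split at 30 therefore belongs to the classes and is no result about the pieces. A low-methylated stretch can change from LMR to UMR when its segment grows past 30 CpGs. How many pieces became new UMRs in this way was not tested. Of the UMRs, 99.8% or more held at least 30 CpGs in each of the 15 lists, and of the LMRs at most 0.00466% did. The LMRs that overlapped the pieces at Baseline had a median of 13 CpGs in Cl.3, 13 in Cl.6 and 15 in Cl.9. The UMRs that overlapped them at Knockdown had a median of 66, 108 and 323 CpGs and a median length of 10763, 16656 and 45476 bp in the same order. At Recovery these medians were 54, 74 and 197 CpGs and 9047, 11995 and 29258 bp. The plot of CpG number per segment shows nearly all baseline LMRs to the left of 30 CpGs and nearly all later UMRs to the right of it.

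**Figure D1:**
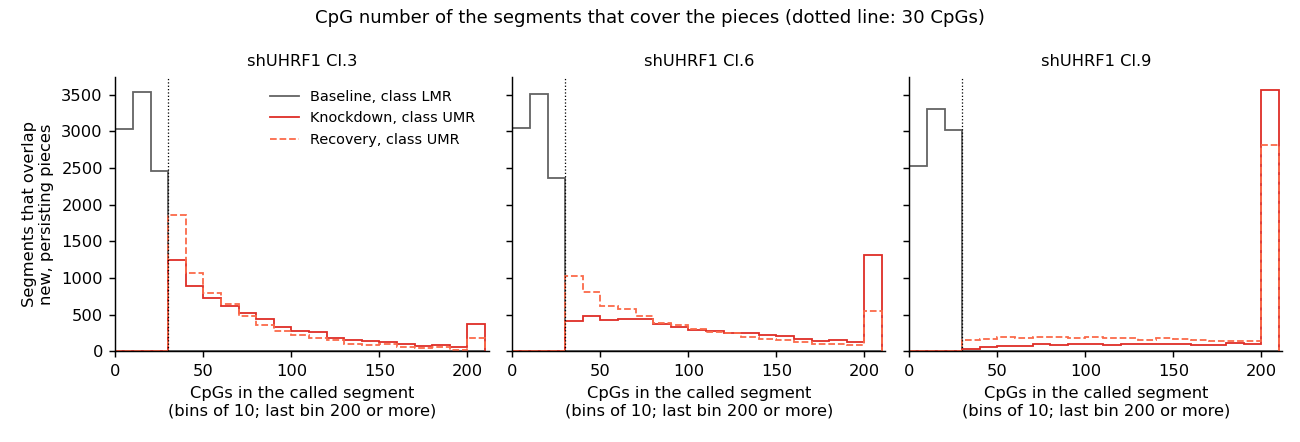
CpG number of the called segments that overlap the 6909 pieces, one panel per shUHRF1 clone, as counts of segments in bins of 10 CpGs (the last bin holds 200 or more); grey is class LMR at Baseline, solid red is class UMR at Knockdown and dashed red is class UMR at Recovery. The classes divide at the dotted line of 30 CpGs, so nearly all LMRs lie below it and nearly all UMRs at or above it. The Cl.9 UMRs pile up in the last bin, with a median of 323 CpGs at Knockdown.

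Each later UMR usually took in several baseline segments. In Cl.3, the 6592 UMRs that covered the pieces at Knockdown held a median of 2 baseline LMRs of the same clone, and 37.8% also held a baseline UMR. The medians were 3 and 5 baseline LMRs in Cl.6 and Cl.9, with a baseline UMR in 49.7% and 74.8%. Neither class was present at Baseline in 0.671% to 0.824% of these UMRs in the 3 clones. By position, 2947 pieces (42.7%) abutted a baseline UMR of some clone on 1 side, 287 (4.15%) on both sides and 3675 (53.2%) on neither. Those on neither side lay a median of 2609 bp from the nearest baseline UMR, and 778 pieces (11.3%) lay over 10 kb from it. Both kinds had similar levels, with 38.4% and 34.3% methylation at Baseline in Cl.3 for pieces that abutted a UMR and those that did not, and 28.4% and 25.0% at Recovery.

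Methylation (mC, methylated reads over all reads at CpGs) was intermediate in the pieces at Baseline, at 35.8% in Cl.3, 37.3% in Cl.6 and 34.2% in Cl.9. It was 23.9%, 19.9% and 11.9% at Knockdown. It was 26.3%, 23.1% and 14.4% at Recovery. The bulk populations had 37.1% (R1) and 37.2% (R2) at Baseline, 16.4% and 16.0% at Knockdown and 36.5% and 36.5% at Recovery. The 3 clones thus stood well below their Baseline after 14 days without doxycycline, whereas both bulk populations were back within 1 percentage point of theirs. The class name is therefore not the level, since a piece in class UMR still held 11.9% to 26.3% methylation in the clones.

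In the clones mC changed by -17.2 ± 5.19 percentage points at Knockdown and stood -14.5 ± 5.09 points from Baseline at Recovery (SD, n = 3). They regained 16.5% ± 4.51 of what they had lost, from 11.3% in Cl.9 to 19.6% in Cl.3. The pieces were chosen for their class at Recovery, and over all autosomal CpGs the same clones regained 36.1% (Cl.9) to 47.6% (Cl.6) of their loss. The bulk populations lost more than Cl.3 and Cl.6, with -21.0 ± 0.268 points (SD, n = 2). R1 and R2 regained 96.8% and 96.7% of this loss, against 97.5% and 97.4% over all autosomal CpGs. At Recovery they were -0.681 ± 0.0148 points from Baseline (SD, n = 2), lower in 2 of 2 populations, with an exact two-sided sign-flip p of 0.5. That is the smallest p that 2 populations allow, so the test cannot pass 0.05. The same p goes with the Knockdown fall in the bulk populations.

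**Figure D2:**
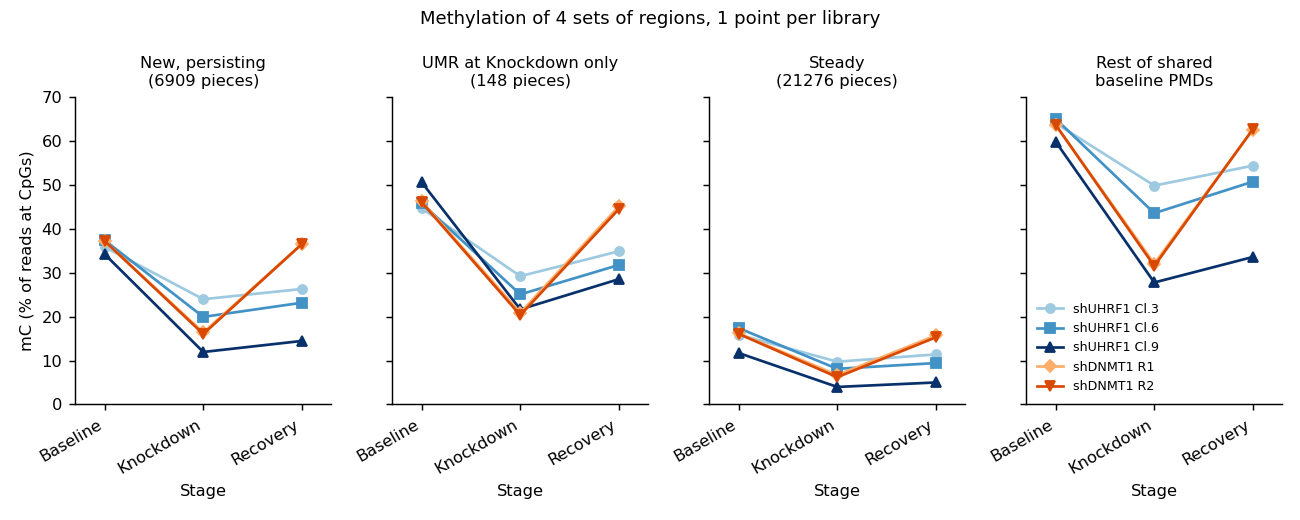
Methylation (percent of reads at CpGs that were methylated, y axis) at the 3 stages (x axis) in 4 sets of regions, with 1 point per library and 1 line per population. In the new, persisting pieces the 3 blue shUHRF1 lines end at 14.4% to 26.3%, below the 2 orange shDNMT1 lines, which return to 36.5% after a fall to about 16%.

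The same contrast was seen piece by piece. Of the 6827 pieces with 50 reads in every library, 6691 (98.0%) were below their own Baseline at Recovery in all 3 clones, which the rule favours. Within 10 points of Baseline were 54.1% of pieces in Cl.3, 18.5% in Cl.6 and 5.38% in Cl.9. In R1 and R2, which the rule did not use, 98.3% and 98.5% of pieces were within 10 points, and 57.6% and 58.6% of all 6827 pieces were below Baseline. The Baseline and Recovery values of the 2 bulk populations overlapped in 4328 pieces (63.4%), while their Knockdown values lay below both Baseline values in 6824 (99.96% of pieces). With 2 values per stage, overlap is common even without a change, and the same counts were not made over the genome. In the test of 10 kb tiles given below, 99.98% of all tiles were called lower at Knockdown. The 2 counts are thus no result about the pieces. Both bulk Recovery values exceeded all 3 clone Recovery values in 6341 pieces (92.9%). The rule favours this too, since it asked for class UMR at Recovery in the clones and not in the bulk populations. Both bulk Knockdown values lay below that of Cl.3 in 6341 pieces as well, and the overlap of these 2 counts is not given here. Cl.9 was the lowest clone at Recovery in 93.4% of pieces and Cl.3 the highest in 72.5%.

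**Figure D3:**
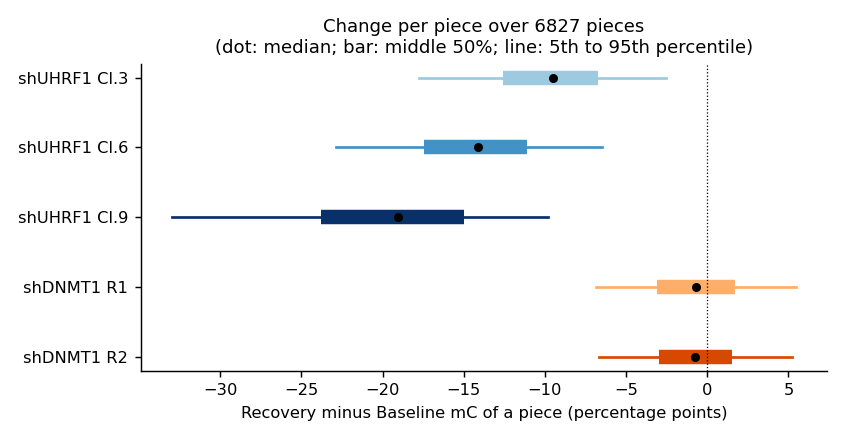
Recovery minus Baseline methylation of single pieces (x axis, percentage points) for each population (y axis), over the 6827 pieces with 50 reads or more in every library; the dot is the median, the bar the middle 50% and the line the 5th to 95th percentile. Medians run from -9.52 (Cl.3) to -19.1 points (Cl.9) among the clones, while R1 and R2 have medians of -0.696 and -0.726 with bars that cross 0.

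The share of Baseline left at Recovery varied little between pieces grouped by length or by CpGs per kb. Single CpGs within the pieces did differ by density, as given below. Split into 4 equal groups by CpGs per kb, Recovery stood at 72.7%, 73.5%, 73.5% and 73.5% of Baseline in Cl.3, from the sparsest to the densest group. In Cl.9 the values were 42.2%, 41.9%, 42.0% and 42.9%. By length, the shortest pieces, of 2000 to 3055 bp, had 38.0% methylation at Baseline in Cl.3, and the longest group had 34.96%. At Recovery they stood at 73.5% and 73.1% of those levels. Between pieces the spread was wider, with the 5th to 95th percentile of Baseline mC from 22.2% to 51.8% in Cl.3 and from 19.5% to 53.7% in Cl.9. Below 10% methylation at Recovery were 67 pieces in Cl.3, 134 in Cl.6 and 1274 in Cl.9.

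Within the pieces, the CpGs that lay outside every baseline LMR had the higher methylation level. Those LMRs were called from the Baseline methylation of the same clones. The Baseline difference in the clones between CpGs inside and outside them is therefore part of the grouping. The 61113 CpGs in a baseline LMR of no clone had 60.7% (Cl.3), 61.5% (Cl.6) and 59.8% (Cl.9) methylation at Baseline. The 79200 CpGs in a baseline LMR of all 3 had 19.0%, 20.4% and 17.2%. The former stood more densely, at 8.14 CpGs per kb against 5.42. At Recovery the former were at 45.7%, 40.8% and 27.4%, and the latter at 13.4%, 11.3% and 6.44%. In R1 the same CpGs had 59.8% and 21.6% at Baseline, 27.4% and 8.93% at Knockdown and 58.5% and 21.2% at Recovery. The 2 kinds of CpG differed in the bulk populations too, and both returned close to Baseline there.

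By density, high-density CpGs (another CpG nearer than 20 bp) had the higher methylation in every library. At Baseline they had 51.8%, 53.6% and 50.3% in Cl.3, Cl.6 and Cl.9, where low-density CpGs had 31.1%, 32.4% and 29.4% and solo-WCGW CpGs had 18.0%, 19.5% and 17.0%. At Recovery high-density CpGs stood at 79.3%, 69.9% and 50.7% of Baseline in those clones. Low-density CpGs stood at 70.4%, 58.1% and 38.0%, and solo-WCGW CpGs at 60.1%, 46.7% and 28.5%. In each clone the share was thus lowest at solo-WCGW CpGs. In points the order was the other way, with Recovery minus Baseline at -10.7, -16.1 and -24.8 points at high-density CpGs of Cl.3, Cl.6 and Cl.9 and at -7.19, -10.4 and -12.2 at solo-WCGW CpGs. In R1 these 3 shares were 98.2%, 98.0% and 96.6%, and in R2 98.5%, 97.7% and 96.2%. Solo-WCGW CpGs of Cl.9 had 3.66% methylation at Knockdown and 4.85% at Recovery, the lowest level of any density class in these libraries. Of the 5 central CpGs printed for the longest well covered pieces, the fourth (chr4:45832520-45832549) has the WCGW flanks, and no methylated read was found there in any of the 9 clone libraries.

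**Figure D4:**
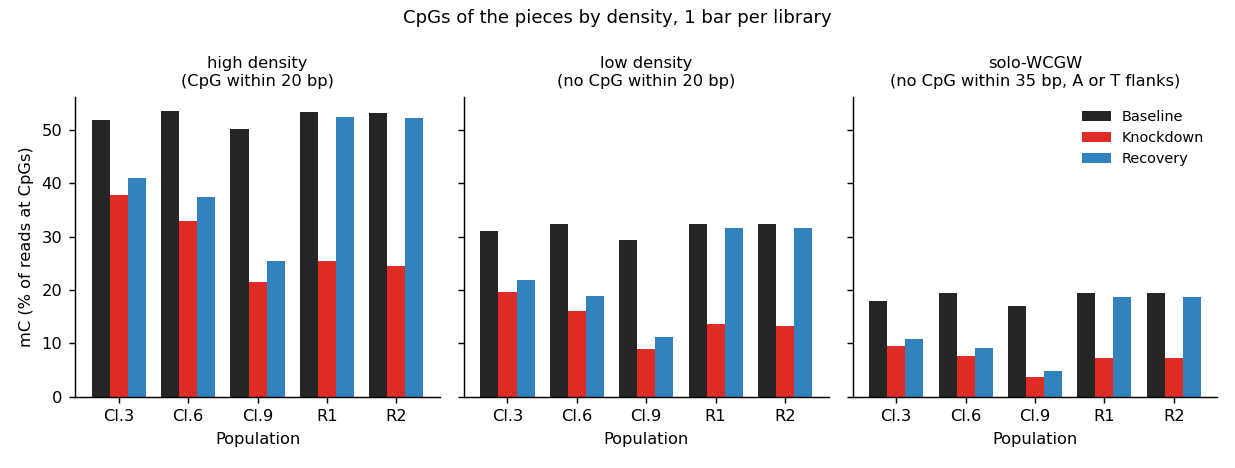
Methylation of the CpGs in the pieces by CpG density, with 1 bar per library (black Baseline, red Knockdown, blue Recovery) and the 5 populations on the x axis; the y axis is percent of reads methylated and starts at 0. Blue bars stay near red ones in the clones and near black ones in R1 and R2 in each panel, with solo-WCGW CpGs lowest.

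Most edges of the pieces lay next to short methylated stretches. Of all edges, 10297 (74.5%) did not abut a baseline UMR, and in the first 500 bp outside them mC at Baseline was 70.4%, 69.7% and 63.9% in Cl.3, Cl.6 and Cl.9. The other 3521 edges (25.5%) abutted one in some clone and had 29.6%, 30.4% and 26.0% there. Averaged over all edges, mC in those 500 bp at Baseline was 63.2%, 62.9% and 57.2% in the same clones, against 34.3%, 35.9% and 32.5% in the bin 500 to 1000 bp inside. CpGs were also more numerous there, with 83763 in that bin and 54436 in the bin centred 19.25 kb out. At Recovery the bin outside the edge had 52.7%, 47.1% and 32.1% methylation in the clones and 61.0% in R1 and R2. At 19.25 kb out, the clones had 45.8%, 46.5% and 41.6% at Baseline and 37.1%, 33.2% and 22.0% at Recovery. The clones therefore stayed below Baseline at Recovery outside the pieces as well as inside. Edges were set by the class calls of these clones, so the step in the clones is part of how pieces were chosen. R1, which was not used, had the same step at Baseline, from 35.7% inside to 61.9% outside.

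**Figure D5:**
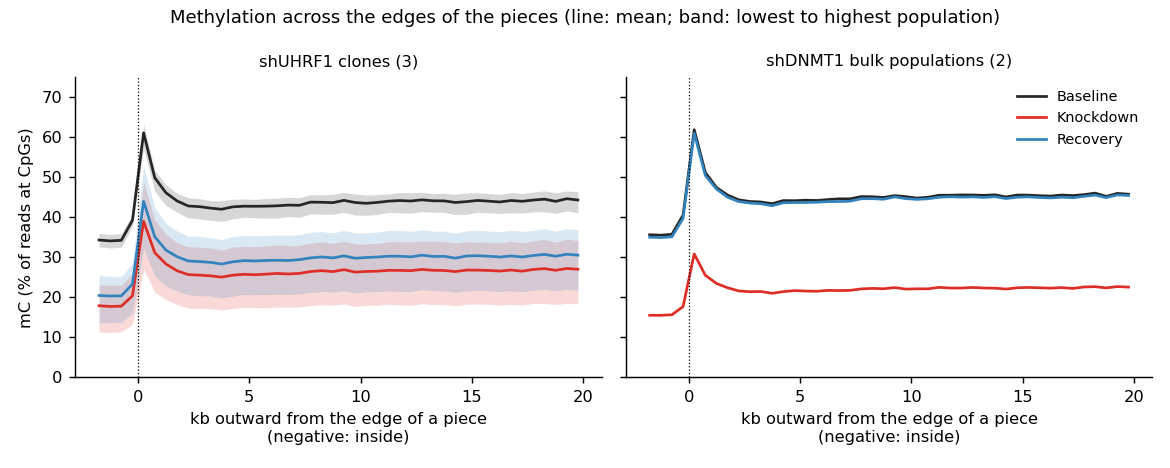
Methylation in bins of 500 bp from 2 kb inside to 20 kb outside the edges of the pieces (x axis, kb outward from the edge; y axis, percent of reads methylated), left for the 3 shUHRF1 clones and right for the 2 shDNMT1 bulk populations; lines are means and bands run from the lowest to the highest population. Averaged over all edges, Baseline methylation peaks just outside the edge at 57.2% to 63.2% in the clones, and in the right panel the Recovery line lies on the Baseline line while in the left panel it lies near the Knockdown line.

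The pieces were set beside 3 other sets. The 148 Knockdown-only pieces (0.654 Mb) had higher methylation at Baseline, with 44.6%, 45.8% and 50.5% in Cl.3, Cl.6 and Cl.9. At Recovery they had 34.8%, 31.7% and 28.5%, and so were also below their Baseline, at 78.1%, 69.3% and 56.4% of it. In the persisting pieces the same shares were 73.4%, 62.0% and 42.3%. The 21276 steady pieces (161.5 Mb), in class UMR in all 9 clone libraries, had 15.9%, 17.4% and 11.7% at Baseline and stood at 71.7%, 54.3% and 42.8% of that at Recovery. The rest of the PMD length shared by the 3 clones at Baseline had 64.0%, 64.9% and 59.8%, and stood at 84.9%, 78.0% and 56.1%. All 4 sets were thus below Baseline at Recovery in every clone. Of their loss, the clones regained 16.5% ± 4.51 in the persisting and 18.1% ± 7.65 in the steady pieces (SD, n = 3). The shares were 30.9% ± 6.58 in the Knockdown-only pieces and 27.9% ± 8.45 in the rest of the PMDs (SD, n = 3). These sets were defined by the same classes, so no test between them is given for the clones.

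In the bulk populations, where these sets were not chosen, Recovery stood at 98.2% and 98.1% of Baseline in the persisting pieces of R1 and R2, 97.5% and 96.7% in the Knockdown-only pieces, 97.3% and 95.1% in the steady pieces and 98.4% and 98.5% in the rest of the PMDs. The fall at Knockdown was smaller in the persisting pieces than in the rest of the PMDs by 10.8 ± 0.159 points (SD, n = 2, exact sign-flip p = 0.5, the smallest possible). As a share of Baseline the order was the other way, since 44.1% and 43.1% of Baseline methylation was left at Knockdown in the pieces of R1 and R2 and 50.4% and 49.5% in the rest of the PMDs, a difference of -6.36 ± 0.0519 points (SD, n = 2, exact sign-flip p = 0.5). Recovery minus Baseline was 0.322 ± 0.0538 points higher in the pieces than in the rest of the PMDs (SD, n = 2, exact sign-flip p = 0.5). As a share of Baseline, Recovery in the pieces differed from that in the rest of the PMDs by -0.254 ± 0.101 points (SD, n = 2, exact sign-flip p = 0.5).

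The bulk libraries allowed a test over the genome. In 10 kb tiles, 2131 of the 2265 tiles with 50% or more of their length in the pieces had 10 CpGs and 50 reads in every bulk library. By edgeR's quasi-likelihood test, with Benjamini-Hochberg adjustment over 265468 tiles, all 2131 were lower at Knockdown than at Baseline at an adjusted p under 0.05 (background 100% of all tiles lower and 0.000753% higher). The median difference was -22.4 points in these tiles and -37.4 over all tiles. At Recovery against Baseline none of the 2131 passed in either direction, where the background was 0.675% of tiles lower and 0.0064% higher. At an unadjusted p under 0.05 there were 118 of the 2131 tiles (5.54%, against 21.4% of all tiles), and limma called 1 lower (0.0469%, against 1.74% of all tiles). The median difference at Recovery was -0.683 points, with a 5th to 95th percentile of -4.02 to 2.37, against -1.08 (-3.75 to 1.52) over all tiles. In simulated tiles at Recovery the fit called 90% of those lowered by 1 in log2 odds and 50% of those lowered by 0.5. Shifts of the latter size could thus go undetected, and smaller ones were not simulated. The simulation drew on tiles of all autosomes. At 40% to 50% Baseline methylation, member tiles had a median of 62 CpGs, against 75 in tiles without any piece. Power in member tiles alone was not measured. Leaving out the Knockdown library of R1 or of R2 gave 13 lower and 2 higher member tiles at Recovery in each case, or 0.61% lower, where 5.45% and 5.42% of all tiles were lower.

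Tiles were also compared at like starting levels in the bulk populations. Among tiles with 30% to 40% mean Baseline methylation, the 731 with 50% or more in the pieces had a median change of -19.2 points at Knockdown and -0.335 at Recovery. The 22544 without any piece had -18.5 and -0.553. Among tiles at 40% to 50%, the 934 with pieces had -23.7 and -0.893, and the 20814 without had -22.6 and -0.763. None of the former and 0.0532% and 0.139% of the latter were called lower at Recovery.

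Applying the rule to 2 clones and measuring the third kept that clone out of the choice. Without Cl.3 there were 21128 pieces (119.7 Mb), in which Cl.3 had 41.7%, 29.3% and 32.3% methylation at Baseline, Knockdown and Recovery. Without Cl.6 there were 11354 pieces, in which Cl.6 had 39.2%, 22.0% and 25.8%. Without Cl.9 there were 14842 pieces, in which Cl.9 had 29.7%, 10.5% and 12.8%. The held-out clone was lower at Recovery than at Baseline in 3 of 3 cases, by a mean change of -13.2 ± 3.80 points (SD, n = 3, exact two-sided sign-flip p = 0.25, the smallest that 3 clones allow). All autosomal CpGs together were also lower at Recovery in each clone. Their change was -6.94 points in Cl.3, -10.1 in Cl.6 and -18.5 in Cl.9, where the held-out pieces had -9.32, -13.3 and -16.9. In points the change in the pieces was thus the smaller in Cl.9, where the pieces started lower. As a share of Baseline, Recovery stood at 77.6%, 66.0% and 43.1% in the held-out pieces of Cl.3, Cl.6 and Cl.9. Over all autosomal CpGs it stood at 90.8%, 86.9% and 74.2%. The held-out clone had these pieces in class UMR over 48.6% of their length at Recovery in Cl.3, 78.1% in Cl.6 and 98.9% in Cl.9. UMRs covered 17.0%, 20.0% and 31.1% of the autosomes in those libraries. At Baseline, the share was already 12.9%, 20.0% and 55.4%, so in Cl.9 most of the length that was new in the other 2 clones was not new.

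The same rule within each population showed how much of this class was private. New, persisting UMR pieces covered 6.61%, 10.1% and 18.4% of the autosomal length outside the own baseline UMRs of Cl.3, Cl.6 and Cl.9. R1 and R2 had 2.16% and 2.23%. Pairs of clones shared 2.63% to 4.94%, the 3 clones shared 1.46%, and R1 and R2 shared 0.431%. Of the length that was newly UMR at Knockdown, 64.7%, 68.8% and 69.1% was still UMR at Recovery in the 3 clones, but R1 and R2 kept 6.72% and 6.48%. In the shared pieces, the bulk lists had 99.7% (R1) and 99.6% (R2) of the length in class UMR at Knockdown and 19.2% and 19.8% at Recovery, next to 16.4% and 16.8% at Baseline. Over the autosomes, UMRs covered 43.2% (R1) and 45.2% (R2) at Knockdown, 11.5% and 11.6% at Recovery and 11.0% and 11.0% at Baseline. The rise and return of this class in the bulk lists was thus not particular to the pieces.

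The pieces lay on all 22 autosomes, from 5.94 kb per Mb of sequenced chromosome 6 to 23.8 on chromosome 21. Chromosome 8 was left out of the pieces named singly. Of the 10 longest on the other autosomes, 9 had a mean of under 5 reads per CpG in some library, and 1 of them, chr15:17776965-18194620, had as few as 16 reads over 3249 CpGs. Their levels are little constrained. The longest well covered piece, chr4:71699057-71723156, had 91 CpGs and 1125 reads or more per library. It had 33.8%, 22.1% and 24.1% methylation at Baseline, Knockdown and Recovery in Cl.3, 32.6%, 19.7% and 22.8% in Cl.6 and 41.4%, 14.9% and 16.0% in Cl.9. R1 had 38.6%, 15.5% and 35.7% there and R2 had 36.8%, 16.6% and 35.1%, so the clones stayed near Knockdown and the bulk populations returned.

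The deepest of the 10 longest well covered pieces, chr10:111934140-111950546, had at least 2213 reads over 94 CpGs in each library. Its methylation was 34.95%, 24.5% and 24.9% in Cl.3, 35.3%, 18.0% and 21.1% in Cl.6, and 28.2%, 9.13% and 11.1% in Cl.9. It was 36.7%, 17.0% and 34.8% in R1 and 36.2%, 15.8% and 37.3% in R2. The well covered Knockdown-only piece chr13:68218588-68230644 had 47.7%, 34.1% and 40.8% in Cl.3, 56.6%, 33.2% and 48.1% in Cl.6 and 44.8%, 26.9% and 35.9% in Cl.9. It had 50.5%, 27.3% and 53.6% in R1 and 54.3%, 26.0% and 48.8% in R2. In the Knockdown-only piece the clones came nearer to Baseline but did not reach it.

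At the length limit, the pieces just inside it measured 2000, 2001 and 2002 bp and the runs just outside it 1999, 1999 and 1998 bp. The 2000 bp piece (chr6:69002468-69004467) had 18.8%, 10.2% and 10.3% methylation in Cl.3 at the 3 stages and 51.8%, 22.3% and 36.0% in Cl.6. The run of 1999 bp at chr3:76088355-76090353 had 39.6%, 31.1% and 31.4% in Cl.3 and 49.5%, 27.7% and 29.1% in Cl.6. Both fell at Knockdown and stayed below Baseline at Recovery in these clones.

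Genes were sparse in the pieces. Protein-coding genes of GENCODE release 44 held 34.7% of their length against 45.3% of the autosomes, exons 1.01% against 3.80%, and promoter windows (from 1 kb before a gene's 5' end to 100 bp after it) 0.175% against 0.733%. Of the pieces, 2585 (37.4%) touched a protein-coding gene and 71 (1.03%) touched a promoter window. Chromosome 8 was left out of the genes named singly. On the other autosomes, the 10 genes with the most sequence in the pieces were DLG2, PDE4D, SOX6, PTPRD, DPP10, CNTNAP2, NALF1, RASGEF1B, NPAS3 and RBFOX1. They were 617.9 to 2474 kb long. DLG2, a scaffold protein of synapses, had 34 pieces covering 202.0 kb (9.29% of the gene). In these, Cl.3 had 38.0%, 23.9% and 27.8% methylation at the 3 stages, Cl.9 had 36.9%, 11.0% and 13.2%, and R1 had 38.9%, 16.2% and 38.2%. PDE4D, which breaks down cyclic AMP, had 23 pieces covering 151.7 kb, with 41.7%, 26.2% and 29.2% in Cl.3, 39.8%, 11.1% and 13.3% in Cl.9 and 44.6%, 17.6% and 43.4% in R1. SOX6, a transcription factor, had 16.1% of its length in 15 pieces, with 42.7%, 11.7% and 14.4% in Cl.9. CNTNAP2, a neuronal adhesion protein, had 24 pieces covering 108.5 kb, with 32.1%, 12.6% and 14.8% in Cl.9. In the pieces of each of the 10 genes all 3 clones were below Baseline at Recovery. The bulk populations were furthest from it in SOX6, where R1 had 43.8% at Baseline and 40.8% at Recovery and R2 had 43.0% and 39.5%.

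Their promoters lay elsewhere and differed in level. No promoter window of these 10 genes touched a piece. The DLG2 window, a CpG-rich one with 43 CpGs, had 0.501% methylation at Baseline and 0.543% at Recovery in Cl.3, and in Cl.9 it had 0.357% and 0.355%. The NALF1 window had 94.8% and 89.2% in Cl.3 and 90.5% and 76.8% in Cl.9. Other windows fell further while lying outside the pieces, as in SOX6, with 78.8% at Baseline and 51.5% at Recovery in Cl.3 and 63.9% and 26.9% in Cl.9, and in CNTNAP2, with 65.9% and 38.5% in Cl.9.

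By gene group, pieces reached the bodies of 29 of 45 synaptic adhesion genes, 11 of 23 cadherins, 15 of 33 ionotropic glutamate and GABA receptor genes and 10 of 39 voltage-gated potassium channel genes, against 709 of all 19111 protein-coding genes (3.71%). These genes are long, with medians of 380.0, 140.1, 169.3 and 52.0 kb against 27.9 kb for all. Of their summed length, 3.70%, 3.24%, 2.87% and 4.18% lay in pieces, against 0.932% for all genes. Olfactory receptor genes, which are short and lie in clusters, had 28 of 415 bodies reached, with 2.80% of their length. Pieces reached the body of 2 of 94 keratin-associated protein genes, 1 of 22 UDP-glucuronosyltransferases and 1 of 28 autosomal cancer-testis genes. None of the 17 type I interferon genes, 33 serpins, 32 colon epithelium genes or 74 cytosolic ribosomal protein genes was reached. These are counts, with no test of the lists.

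Whole promoter windows lay in pieces for 40 of the 19111 genes (0.209%), with a median of 7 CpGs against 41 for all genes. Olfactory receptor genes supplied 13 of the 40, of 415 (3.13%). In the 40 windows together mC was 33.2% at Baseline and 23.3% at Recovery for Cl.3, 32.5% and 19.7% for Cl.6, and 32.6% and 14.5% for Cl.9. R1 and R2 had 33.9% and 34.4% at Baseline and 35.1% and 32.6% at Recovery. GFRA1, a co-receptor for a neurotrophic factor, had 12 CpGs in its window with 45.7%, 16.0% and 18.9% in Cl.9, 49.1%, 28.1% and 43.1% in Cl.3 and 51.9%, 24.1% and 52.5% in R1. IL7R, the receptor chain for interleukin 7, had 9 CpGs with 23.9%, 5.49% and 6.18% in Cl.9, but 11.9%, 12.2% and 15.0% in Cl.3, where it did not fall. LCE3D, a protein of the outer skin layer, had 15 CpGs with 58.1%, 26.5% and 35.9% in Cl.9. OR8B4, an olfactory receptor gene that lies wholly in a piece, had 15 CpGs with 34.9%, 6.23% and 10.0% in Cl.9 and 46.0%, 16.1% and 43.2% in R1. CDH18, a neuronal cadherin, was the 1 gene of 23 cadherins with its whole window in a piece, with 32.1%, 7.89% and 15.0% in Cl.9. MTMR11 was an exception, with 0% to 2.33% methylation at the 16 CpGs of its window in the 15 libraries, so a window in a piece need not have carried methylation to lose. CGB1 shares its window with an overlapping gene and belongs to a family of near-identical gonadotropin genes. How reads divide among these copies was not tested, so its values are uncertain. The windows named singly held from 57 (CDH18) to 532 (GFRA1) reads per library, so single levels carry counting error. No transcription was measured in these libraries.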

How the data were processed

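Whole-genome bisulfite libraries of 15 HCT116 populations and stages were used. The authors deposited raw counts per CpG, methylated reads and covering reads with both strands summed, after alignment to hg38 with the Meth10X pipeline, and 1 domain list per library. Per the study's methods, UMRs, LMRs and PMDs were called with MethylSeekR, and HMDs were the rest with a mean mC of 0.8 or more, by bedtools 2.25.0. MethylSeekR's settings were not given in the sources used here.

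The members and gene lists were chosen with earlier results of these data known. Domain lists were intersected at every domain edge and reads were summed per piece (Python 3.11.15, NumPy 2.4.6). Bulk tiles of 10 kb were tested with edgeR 4.0.16 (glmQLFit and glmQLFTest with a methylation design, 3 stages in 1 fit, population as a block), and limma 3.58.1 on log2 odds with a pseudocount of 1 was an alternative. All position names are 1-based hg38 coordinates, and all autosomal positions of the count tables were checked to be CpG cytosines of it. Between populations, mean, SD and exact two-sided sign-flip tests were used. Nothing in the labels says that R1 and R2 came from separate transductions, so their p-values cover the spread between these cultures. The fit was tested on 20000 simulated tiles, without the fall of nearly all tiles at Knockdown. There 66% of 200 changed tiles (log2 odds moved by 0.5 or 1) were found at Recovery and 7.04% of calls were false. The interval rule was tested base by base.

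Named pieces were the 10 longest off chromosome 8 and the 5 and 3 whose central CpG is printed. The 3 on each side of 2 kb were also named. Genes, also off chromosome 8, were the 10 with most body in pieces. Beside them were the 10 with the whole promoter window in pieces, most CpGs and 50 reads. Up to 4 genes per list off chromosome 8 with the whole promoter window in pieces were added. The 5 largest falls and rises among member tiles called by edgeR at Recovery were also to be named. With all 6 bulk libraries it called no member tile. As the longest pieces were thinly covered, printed sequences came from those with a mean of 5 reads per CpG, a choice made after seeing the data.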

Additional observations from a re-analysis of the deposited data

Results flagged for a closer look

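Chromosome X was outside the rule. Its base pairs gave 509 further pieces by the same class rule, covering 2.44 Mb or 2.27% of the chromosome outside the baseline UMRs of the clones, against 1.46% on the autosomes. They had 34.8%, 22.9% and 24.3% methylation at Baseline, Knockdown and Recovery in Cl.3, 37.8%, 19.5% and 22.0% in Cl.6 and 34.7%, 11.9% and 14.2% in Cl.9. R1 had 35.3%, 15.9% and 34.4% and R2 had 35.03%, 15.6% and 34.6%. The pieces appeared in data that the comparisons did not use, and the difference from the autosomes was not tested.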

How the results depend on the processing

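The number of pieces depended on the rule. It was 2724 with a minimum of 5 kb, 273 with 10 kb and 707 with baseline LMR base pairs left out, and it ran from 11354 to 21128 when 1 clone was left out of the rule (21128 without Cl.3, 11354 without Cl.6 and 14842 without Cl.9). Clone methylation at Recovery and the held-out clone change moved by less than the spread between clones under each alternative run for them. The bulk change at Recovery of -0.681 points kept its direction and was -0.843 as a mean over CpGs with 5 reads, a shift above its SD of 0.0148. New length in R1 and R2 was 2.43% and 2.49% with no minimum and 1.62% and 1.71% with 5 kb, shifts above their spread. The length shared by all 3 clones was 1.46%, 0.873% with 5 kb, and 4.94%, 2.63% and 3.399% without Cl.3, Cl.6 and Cl.9. Alternatives on coverage, on single bulk libraries and on clones left out of the mean were added after seeing the data.

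For the bulk tiles, 6116 and 507 member tiles were lower at Knockdown with 25% and 75% of a tile as the limit, since more or fewer tiles then count as members. Lower at Recovery was 1 tile with 25%, 1 by limma, and 0 to 13 with a bulk library left out. Over all tiles these were 0.675%, 1.74% and 0.0897% to 5.45%. With a library left out, the lone library of a stage is assumed to vary like the rest. The fit with no replicate block called 0 member tiles at Recovery and 2131 at Knockdown. The block was used because the study compares each library with the Baseline of its own population. Deviations of 1 population from the stage means correlated at only 0.00577 to 0.0182 between stages, and dropping the block changed the lower tiles over the genome at Recovery from 1792 to 1545. Depth limits single CpGs and the longest pieces most.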
